A study of Mus musculus with 4 samples.

Results

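The guanylate-binding proteins (GBPs) were described here through 9 mouse genes, Gbp2, Gbp3, Gbp4, Gbp5, Gbp6, Gbp7, Gbp8, Gbp9 and Gbp10, chosen by symbol out of 24421 genes in the count table, together with the 1432 rows of the site table that carry these symbols, out of 1205261. All 9 symbols were found. Gbp2, Gbp3, Gbp5 and Gbp7 lie in a cluster of 4 on chromosome 3, and Gbp4, Gbp6, Gbp8, Gbp9 and Gbp10 in a cluster of 5 on chromosome 5. In mm10 (annotation GENCODE vM21) the first run on the plus strand from position 142493978, where Gbp5 starts, to 142638008, where Gbp2 ends, and the second on the minus strand between 105014150 (Gbp8) and 105293698 (Gbp6). The RNA came from lung endothelial cells (ECs) of 2 male inducible ADAR1 knockout mice (i-KO, strain C57/BL6, 2 weeks old) from separate litters. The cells of each mouse were grown as a pair of cultures, and one of them received 4-OH-tamoxifen (TM), which starts a Cre recombinase that removes the floxed exons 12 to 15 of the ADAR1 gene, while the other was left untreated (CON). This gave 4 libraries, with n = 2 per group. EC1 CON and EC1 TM come from the first mouse and EC2 CON and EC2 TM from the other. Both groups carry the floxed gene and the Cre, so the groups differ by the drug as well as by the deletion, and no culture without the Cre was analysed here. The model is labelled as EC-specific, and the promoter that drives the inducible Cre is not given in the sources used here. Cells were selected on beads for CD31 and then ICAM-2 and were passaged before treatment, so they are cultured primary cells from a single organ.

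GBPs are large GTPases of the dynamin superfamily that interferons induce in most cell types. They assemble on the membranes of intracellular bacteria and parasite vacuoles and help to open them, which exposes microbial ligands to inflammasome sensors, and some of them carry a C-terminal CaaX motif to which a prenyl group is attached. Their genes are classic targets of the factor complex ISGF3 and of IRF1, and interferon signals act through the interferon-stimulated response element (ISRE) and the gamma-activated sequence (GAS) in promoters. ADAR1 converts adenosine to inosine in double-stranded RNA, and inosine is read as G by a sequencer.

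The 5′ flanks of the chromosome 3 genes are shown first, because they are the part of the promoters that could be read for these genes. The ISRE core lies in all 4 flanks and the GAS in those of Gbp5 and Gbp7. RefSeq promoter entries of GRCm38.p6 were matched for 4 of the 9 genes. Each line is the plus strand, which is the coding strand of these genes, and capitals mark the ISRE core (GAAANNGAAA on either strand) or the GAS (TTCNNNGAA, which reads alike on both strands). The stretches span chr3:142620584-142620633, chr3:142559979-142560034, chr3:142496684-142496910 and chr3:142530210-142530312. They are placed by the RefSeq start sites, which differ from the GENCODE starts. The GENCODE start of Gbp5, 142493978, lies upstream of its whole stretch, and those of Gbp2 (142620602) and Gbp3 (142560026) lie inside theirs.
Gbp2: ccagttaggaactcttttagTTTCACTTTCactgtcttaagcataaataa
Gbp3: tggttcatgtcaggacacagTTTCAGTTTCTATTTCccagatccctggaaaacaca
Gbp5: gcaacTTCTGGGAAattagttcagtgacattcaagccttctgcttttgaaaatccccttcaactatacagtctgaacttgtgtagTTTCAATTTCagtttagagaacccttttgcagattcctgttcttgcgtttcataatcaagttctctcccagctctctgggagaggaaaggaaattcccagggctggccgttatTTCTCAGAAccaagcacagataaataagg
Gbp7: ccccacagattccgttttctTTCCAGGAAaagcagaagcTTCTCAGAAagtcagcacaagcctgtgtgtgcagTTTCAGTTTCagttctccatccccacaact
Gbp2 held 1 ISRE core, 59 to 50 bases upstream of the start site. Gbp3 held 2 that overlap each other, and its alternative start held none in its own 250 upstream bases. Gbp5 and Gbp7 each held 1 ISRE core and 2 GAS. Of 32851 promoter entries with 250 upstream bases, 2.98% held an ISRE core, 7.02% a GAS and 0.332% both. A match of letters is a description of these windows and does not show binding.

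The paralogs differ in how closely they resemble each other. In GENCODE vM21 transcripts, coding sequences of the chromosome 5 genes were 90.5% to 98.4% identical over 10 pairs (median 90.8%), and those of the chromosome 3 genes 67.2% to 79.5% over 6 pairs (median 68.2%). The 20 pairs between the clusters lay at 65.8% to 76.5% (median 72.0%). Gbp6 and Gbp10 were the closest pair, with 1803 of 1833 aligned coding bases identical. Reads of Gbp6 and Gbp10 are therefore hard to assign. Of windows of 100 bases, about the read length of the study, 82.9% of those in the Gbp6 transcript and 70.9% of those in Gbp10 also occurred in a transcript of another gene, most often Gm43302. The share was 10.2% for Gbp7, where the other gene is Gm43802, between 0.929% and 3.81% for Gbp3, Gbp4, Gbp8 and Gbp9, and 0% for Gbp2 and Gbp5. Exons of Gbp4, Gbp8 and Gbp9 also overlap each other on the same strand in this annotation. Gm43302 overlaps exons of Gbp6 and Gbp10 in the same way. With transcripts of other GBP genes alone, 46.7% of the Gbp6 windows and 57.0% of the Gbp10 windows were shared.

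**Figure D1:**
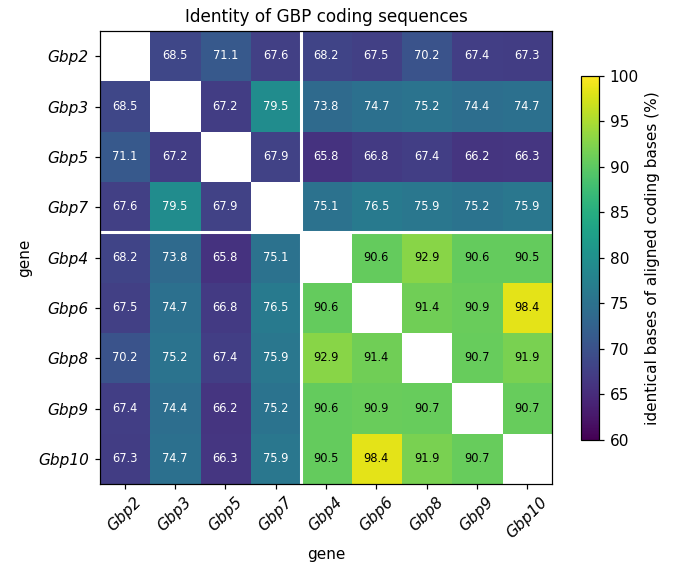
Identity of the coding sequences of the 9 GBP genes, as the percent of aligned bases that are identical (colour and printed value), with the chromosome 3 genes first and white lines between the clusters. The lower right block, chromosome 5, runs from 90.5% to 98.4%, and the upper left block, chromosome 3, from 67.2% to 79.5%.

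The libraries held 1095488 to 1778732 counts on genes, which was 0.823% to 0.858% of all rows of each count table. Positions in exons were covered far more deeply than these counts imply, as given below. The study counted with the default settings of HTSeq, the sources used here do not say whether its strand setting matched the library kit, and its part in the low counts, which touches every count, CPM and fold below, was not tested. In each library a count of 0 allows up to 3 counts, or 1.69 to 2.74 CPM (counts per 1000000 counts on genes). The targeted gene was read first. At listed sites in Adar exons 12 to 14, which the deletion removes, median depth was 145 reads in EC1 CON (3 sites), 169 in EC2 CON (1 site) and 65.5 in EC2 TM (2 sites), and EC1 TM listed no site there, while depth in exons 2 to 11 was 152.5 and 175 in CON and 664 and 967 in TM. Exon 15, which the study counts as deleted as well, was at 99 (9 sites) and 156 (2 sites) in CON. In TM it was at 422 (17 sites) and 835 (15 sites). Depth at listed sites was thus lower in exons 12 to 14 of EC2 TM and not lower in exon 15, without scaling to library size. Since a position is listed only where an altered base was called, the lack of sites in EC1 TM is not a measured depth. The study itself reports from its read alignment that exons 12 to 15 were removed. Counts over the whole Adar gene rose from 9 and 16 in CON to 47 and 71 in TM (log2 fold change 1.87 ± 0.45, adjusted p = 0.00609). The endothelial markers were present, with a summed level of 1322.9 to 1666.8 CPM over 12 genes, and of the 10 that could be tested only Cldn5 was called (lower in TM, log2 fold change -1.52 ± 0.41). The 10 leukocyte markers summed to 62.2 to 96.8 CPM in CON and 69.7 to 83.0 CPM in TM. Most of each sum came from Csf1r (29.8 to 57.5 CPM over the libraries), Cd68 (8.18 to 21.9) and Cd14 (6.39 to 19.2). These 3 were tested and not called, while Lyz2 and Cd3e stood at 0 in all libraries. In the same order, the 8 fibroblast and smooth muscle markers summed to 497.4 to 543.1 and 471.7 to 537.3 CPM, mostly Tagln. The 6 epithelial markers reached 1.64 to 5.48 and 2.74 to 6.18 CPM. In such bulk RNA, a change in the number of cells of a type and a change in RNA per cell cannot be told apart.

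The summed counts of the 9 GBP genes were 61 (55.7 CPM) in EC1 CON and 416 (379.5 CPM) in EC1 TM. In EC2 they were 58 (47.5 CPM) without TM and 715 (402 CPM) with it. Both TM cultures thus stood well above both CON cultures. TM was compared with CON by the quasi-likelihood test of edgeR with Benjamini-Hochberg adjustment over the 7899 genes that passed its filter on low counts, and each log2 fold change below is TM relative to CON ± its standard error. Of all genes tested, 7.75% were called at an adjusted p of 0.05, 4.39% higher and 3.35% lower in TM. Of the 9 GBP genes, 7 passed the filter, and these 7 were called, all higher in TM (median log2 fold change 2.92, against 0 over all genes tested). Only Gbp7 and Gbp9 had 10 or more counts in every library. The others passed the filter through their TM libraries, so that the number called among those that passed carries little weight.

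The chromosome 3 genes are taken first. Gbp2, a GBP that is prenylated and coats parasite vacuoles, had 4 and 1 counts in CON, then 40 and 89 in TM, in the order EC1, EC2. Its log2 fold change was 4.22 ± 0.60 (edgeR, adjusted p = 8.05e-06), and pooled over the mice the CPM ratio was 20.8 with a 95% counting interval of 8.69 to 65.1. By mouse the CPM ratio was 9.99 in EC1 and 61.2 in EC2, and the log2 fold change was 5.43 without CON replicate 1 (EC1 CON) and 3.58 without CON replicate 2 (EC2 CON). Among the chromosome 3 genes this was the highest fold, from the lowest CON level per length (1.45 and 0.325 CPM per kb of transcript).

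Gbp5, which promotes assembly of the NLRP3 inflammasome and is also prenylated, had 9 and 16 counts in CON against 81 and 137 in TM (log2 fold change 2.74 ± 0.42, edgeR adjusted p = 2.63e-05). Gbp7, which has been tied to delivery of oxidase subunits and autophagy proteins to vacuoles, had 20 and 13 counts in CON, then 101 and 236 in TM (2.92 ± 0.39, edgeR adjusted p = 3.23e-06). Gbp3 had 10 and 8 counts in CON, then 63 and 89 in TM (2.71 ± 0.45, edgeR adjusted p = 7.89e-05). These 3 genes rose, with log2 fold changes that lie within 1 standard error of each other. In each of them both TM libraries were above both CON libraries.

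On chromosome 5, Gbp9 had 13 and 15 counts in CON, then 73 and 79 in TM, and its log2 fold change of 2.12 ± 0.42 (edgeR adjusted p = 0.000931) was the smallest of the 7. Gbp4, which has been linked to restraint of IRF7, had 1 and 0 counts in CON, then 19 and 31 in TM (5.00 ± 0.95, edgeR adjusted p = 0.000564). With 1 CON count in all, its pooled CPM ratio of 40.3 had a counting interval of 6.91 to 1623.6, and its log2 fold change was 7.53 without EC1 CON, where the remaining CON count is 0 and the value depends on the prior count, and 4.15 without EC2 CON. The fold of Gbp4 was therefore the highest of the 7 and the least precise.

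Gbp6 had 2 and 2 counts in CON, then 22 and 45 in TM (3.60 ± 0.69, edgeR adjusted p = 0.000618), and its CPM ratio was 13.5 with an interval of 5.04 to 51.0. Gbp10, its near-identical neighbour, had 2 and 2 counts in CON, 15 in EC1 TM and 6 in EC2 TM, and did not pass the filter. Its CPM ratio was 4.23 with an interval of 1.43 to 17, and EC1 TM held 13.7 CPM against 3.37 in EC2 TM. Since most windows of each gene also occur in a transcript of another gene, the counts of Gbp6 and Gbp10 are uncertain.

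Gbp8 stayed at or near the limit of detection, with 0 and 1 counts in CON, then 2 and 3 in TM, and no fold is given. The same held for the relatives outside the list, Gbp2b (1 and 1 counts in CON, 2 and 4 in TM) and Gbp11 (0 and 1 in CON, 1 and 4 in TM). For these 3 genes a difference was not detectable at this depth in the counts.

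**Figure D2:**
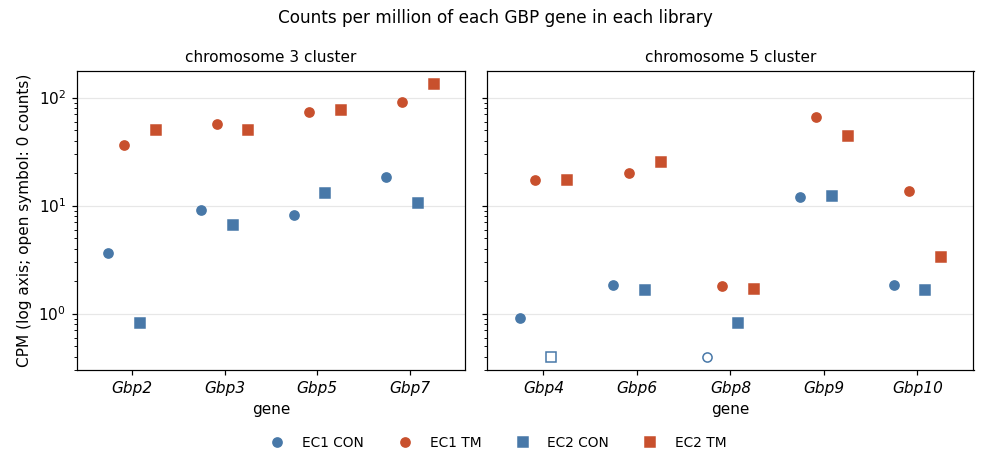
CPM (log axis) of each of the 9 GBP genes in each library, with circles for EC1, squares for EC2, blue for CON and red for TM, and open symbols at the foot for 0 counts. The 2 TM points stand above the 2 CON points for each gene, from 1.69 and 1.82 CPM for Gbp8 up to 92.1 and 132.7 CPM for Gbp7 in TM.

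The balance between the clusters was compared next. In EC1 the chromosome 5 genes took 29.5% of the GBP counts of CON (Wilson 95% interval 19.6% to 41.9%) and 31.5% of those of TM (27.2% to 36.1%). In EC2 they took 34.5% in CON (23.6% to 47.3%) and 22.9% in TM (20% to 26.2%). The intervals cover counting error only. In EC1 the shares of both cultures lay within each other's intervals. In EC2 the intervals of the CON and TM shares overlapped, and the intervals of the 2 TM libraries did not overlap. Per kb of transcript the shares were 27.7%, 29.1%, 32.1% and 22.5% in the same order.

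Read depth in the site table gave another readout of the same libraries. That table lists a position in a library only where an altered base was called, with the reads of the reference and the altered base, so that depth is known only at those positions. Median depth at exonic positions was scaled to 100000000 of all rows of the count table. For Gbp2 it went in EC1 from 62.4 (5 positions) to 1672.7 (64 positions), a ratio of 26.8, and in EC2 from 68.3 (6 positions) to 1744.9 (80 positions), a ratio of 25.6. For Gbp3 the scaled depth went from 67.3 to 945.4 in EC1 and from 83.6 to 1140.0 in EC2, ratios of 14.1 and 13.6. The ratios of these genes thus differed little between the mice. Gbp7 gave ratios of 15 and 10.5.

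On chromosome 5, scaled depth of Gbp4 was 7.14 and 3.83 in CON and 382.0 and 284.6 in TM, ratios of 53.5 and 74.3 from 4 listed positions in each CON library. Gbp6 gave 14.3 and 11.5 in CON and 426.0 and 424.5 in TM, ratios of 29.8 and 36.9. Gbp9 stood apart with the highest depth of all in CON, 178.1 and 190.2, and 796.7 and 673.3 in TM, ratios of 4.47 and 3.54. Among these 6 genes Gbp4 had the highest depth ratio and Gbp9 the lowest in both mice, and they also had the highest and lowest fitted count fold of the 7 tested genes, while in EC1 alone the count ratio of Gbp7 (5.05) was below that of Gbp9 (5.61). Of 6396 genes with at least 2 listed exonic positions in each library, 1.25% were at least 4-fold higher in TM in both mice, and the median ratio was 1.05 in EC1 and 0.977 in EC2. Of the 6 GBP genes with such positions, 5 were past 4-fold in both mice and Gbp9 was past it in EC1 only. With 2 mice no test was made.

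The remaining genes had too few listed positions in CON for a ratio. Gbp5 had none in either CON library and a scaled depth of 560.7 and 495.8 in TM. Gbp10 had 1 position in each CON library and 110.8 and 77.9 in TM, so that in depth its TM libraries were closer to each other than in the counts. Gbp8 reached only 15.2 and 10.1 in TM. At the positions listed in both libraries of a mouse, every ratio that could be formed was above 1. It was 26.0 to 29.5 for Gbp2 (2 positions in each mouse), 12.7 to 19.1 for Gbp3 (4 and 5 positions), and 3.49 to 5.05 for Gbp9 (2 and 4 positions). At its only shared position, in EC1, Gbp10 gave a ratio of 24.1 and Gbp8 of 8.75. The relative Gbp2b, which the counts could not resolve, gave 6.92 to 32.5 over 3 positions in EC1 and 5 in EC2, at a scaled depth of 41.0 and 19.8 in TM. Its median exonic depth in CON was only 2 reads in each mouse, and that of Gbp8 in EC1 CON 3 reads at 1 position, so these ratios rest on a few reads.

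**Figure D3:**
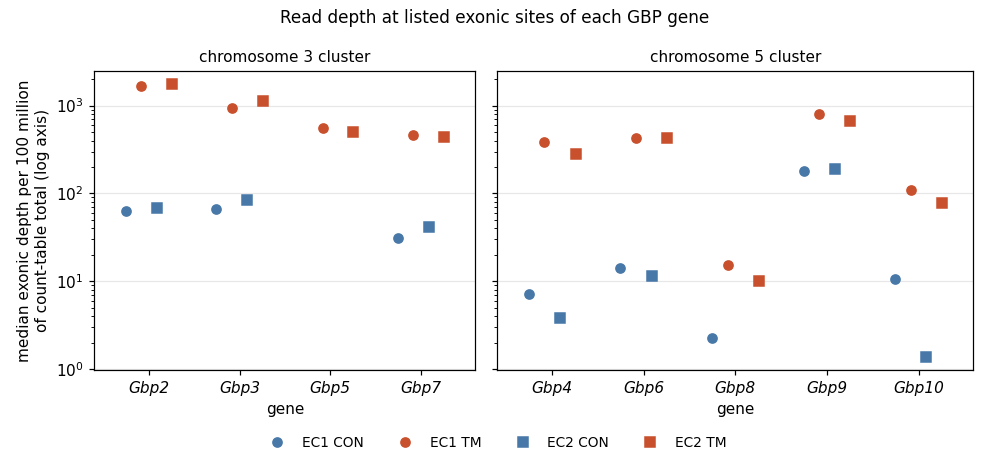
Median depth at listed exonic positions of each GBP gene, per 100000000 of all rows of the count table (log axis), with circles for EC1, squares for EC2, blue for CON and red for TM. Gbp2 is highest in TM at 1672.7 and 1744.9 and Gbp9 highest in CON at 178.1 and 190.2, and no CON point is drawn where no position was listed.

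Levels were compared between genes per length only. In scaled depth, the order in TM was Gbp2, Gbp3, Gbp9, Gbp5, Gbp7, Gbp6, Gbp4, Gbp10 and Gbp8 in both mice. The closest neighbours were Gbp7 (467.4 and 438.9) and Gbp6 (426.0 and 424.5). In CPM per kb of transcript, Gbp5 led in TM with 24.2 in EC1 and 25.2 in EC2, and Gbp8 was again lowest with 0.742 and 0.686. Gbp7 (16.4 and 23.6), Gbp3 (21.4 and 18.7) and Gbp2 (14.5 and 19.9) overlapped each other between the mice. The counts and the depth therefore did not give the same order. The count of a gene was also taken as a share of the read pairs that its depth implied. In TM it was 0.584% and 0.924% for Gbp7, 0.144% and 0.196% for Gbp2 and 0.101% and 0.14% for Gbp4. The medians over all genes were 0.309% and 0.318% there. In CON the shares were 1.72% and 0.772%, 0.383% and 0.0811%, and 0.281% and 0%, against medians of 0.337% and 0.235%. Those of Gbp2 and Gbp4 in CON rest on 4 and 1 and on 1 and 0 counts. The implied pairs use all annotated exon bases (7494 for Gbp4), not the transcript used per kb (4538). The cause of the unequal shares was not tested.

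The genes that regulate GBPs were followed from a list of 15, of which 12 could be tested. There 3 were called, all higher in TM, against 4.39% of all genes, and the median log2 fold change of the list was 0.82. They were Stat2, a subunit of ISGF3 (9 and 9 counts in CON, 98 and 164 in TM, log2 fold change 3.47 ± 0.42), Irf9, the DNA-binding subunit of the same complex (1 and 2, then 22 and 28, 3.62 ± 0.78), and Irf1 (9 and 6, then 41 and 65, 2.44 ± 0.49). All 3 had under 10 counts in each CON library and passed the filter through their TM libraries, so that the number called carries little weight. The receptor subunits Ifnar1 and Ifnar2 were tested and not called, at -0.32 ± 0.44 and 0.15 ± 0.45.

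The immunity-related GTPases, which act with GBPs on vacuoles, had 6 of 9 listed genes tested. All 6 were called higher in TM, against 4.39% of all genes (median log2 fold change 2.50, or 2.03 with Gm4951 at its bound). Only Irgm1 among these 6 had 10 or more counts in every library. As with the GBPs, the others passed the filter through their TM libraries, so that the number called carries little weight. Iigp1 had 2 and 0 counts in CON, then 62 and 131 in TM (6.04 ± 0.66), Gm4951 0 and 0 against 13 and 30, Tgtp1 7 and 4 against 52 and 64 (3.04 ± 0.51), and Irgm1, a regulator that guards host membranes, 14 and 15 against 66 and 75 (1.95 ± 0.42). Igtp was not tested, with 0 counts in both CON libraries and 14 and 15 in TM. The list of other large GTPases, which also held a Rab effector that is not itself a GTPase, gave 2 of 8 tested genes higher in TM, against 4.39% of all genes. These 2 passed the filter through their TM libraries. They were Mx1 (1 and 0 counts in CON, 18 and 20 in TM) and Mx2 (0 and 0, then 43 and 46, at least 14.3-fold higher in EC1 and at least 10.5-fold higher in EC2). The other 6 tested genes, among them the dynamins Dnm1 and Dnm2 and the atlastins Atl1 and Atl3, were not called.

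Of the inflammasome partners only 3 of 9 could be tested. The cytosolic DNA sensor Aim2 rose from 2 and 2 counts to 45 and 71 (4.42 ± 0.60), and the nucleic acid sensor Zbp1 from 0 and 0 to 19 and 48, at least 6.33-fold higher in EC1 and at least 11-fold higher in EC2. As with the GBPs, Aim2 and Zbp1 passed the filter through their TM libraries. The adaptor Pycard stayed at a log2 fold change of 0 ± 0.30. The median of the list was 4.42, or 2.66 with Zbp1 at its lower bound. Casp1, Casp4, Gsdmd and Nlrp3, which act downstream of GBPs, were too low to test, with at most 12 counts in any library. Of the prenylation enzymes, 1 of 5 tested was called, where 7.75% of all genes were called and 3.35% were lower, so that a single call says little of the list. It was the methyltransferase Icmt, lower in TM (45 and 40 counts in CON, 12 and 30 in TM, -1.42 ± 0.43, edgeR adjusted p = 0.0353; list median 0.04). The 5 tested genes of Atg8 conjugation, which guides GBPs to vacuoles, lay between -0.35 (Atg7) and 0.39 (Gabarapl1) on the log2 scale. None was called (smallest edgeR adjusted p = 0.554, median -0.09).

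The genes outside the family whose log2 CPM profile over the 4 libraries lay nearest to that of the summed GBPs were Cxcl10, Nup62-il4i1, Arap2, Nfil3 and Tmem222, by Euclidean distance. It was 0.089 for Nup62-il4i1 and 0.2 for Tmem222. Cxcl10, Arap2 and Nfil3 had 0 counts in both CON libraries, so that their distances and their order depend on the constant added before the logarithm. Of the 5, Nup62-il4i1 had the counts closest to the GBP sum, with 60 and 61 counts in CON, then 424 and 770 in TM. The chemokine gene Cxcl10 had 0 and 0 counts in CON, then 11 and 19 in TM.

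The altered bases listed in the GBP genes split by cluster and by mouse. At a depth of 10 or more, 34 of 345 listed positions in the chromosome 3 genes had an altered-base rate over 0.95 in EC1 TM, where 4.41% of all positions did, and none had a rate of 0.3 to 0.7, where 1.35% did. In EC2 TM none of 433 had a rate over 0.95, where 3.6% of all positions did, and 25 had a rate of 0.3 to 0.7, where 1.46% did. Each CON library held positions in the same class as its TM partner, but among far fewer listed positions and at a larger share of them. EC1 CON held 7 of 28 positions over 0.95 and 0 at 0.3 to 0.7, and EC2 CON 0 of 27 and 7. Positions with a rate under 0.05 were 20 of 28 in EC1 CON and 299 of 345 in EC1 TM. In EC2 they were 20 of 27 without TM and 388 of 433 with it. The shares over all positions were not computed for the CON libraries. In the chromosome 5 genes, 0 of 251 positions in EC1 TM and 1 of 332 in EC2 TM were over 0.95.

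The same positions carried both patterns. Of the 87 positions in the chromosome 3 genes with a depth of 10 or more in both TM libraries, 29 had a rate over 0.95 in EC1 TM, and at 24 of these the rate in EC2 TM was 0.3 to 0.7. The median over the 29 was 1.0 in EC1 TM and 0.462 in EC2 TM (0.28 to 0.733). They lay in Gbp2 (14), Gbp3 (12), Gbp5 (2) and Gbp7 (1). The other 58 positions were under 0.05 in both. The 49 such positions of the chromosome 5 genes held none over 0.95, 38 under 0.05 in both, and 6 with 0.05 to 0.95 in both, which were 3 in Gbp8 and 3 in Gbp10.

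**Figure D4:**
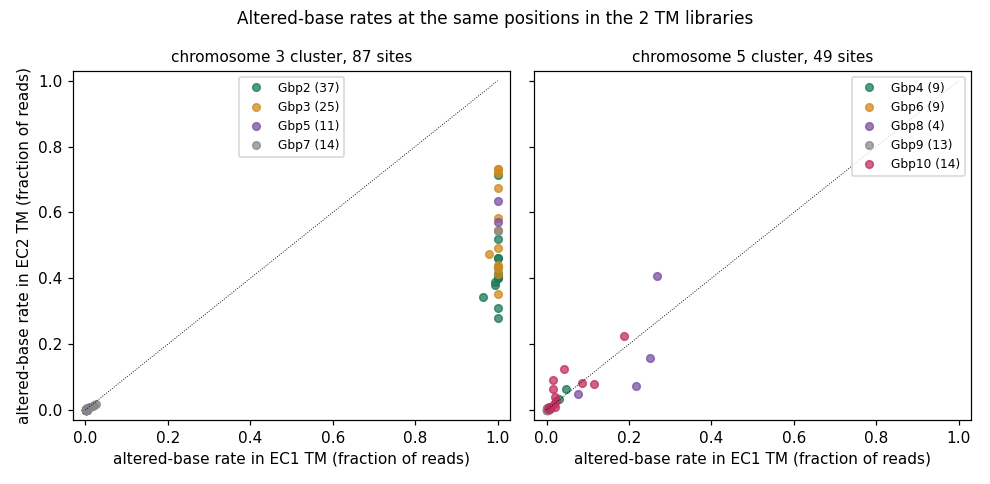
Altered-base rate (fraction of reads) in EC1 TM against EC2 TM at the 87 positions of the chromosome 3 genes (left) and the 49 of the chromosome 5 genes (right) with a depth of 10 or more in both, coloured by gene, with the line of equal rates dotted. On the left 29 positions stand at the right edge with 0.28 to 0.733 in EC2 TM and 58 lie near 0, and on the right all points stay at or under 0.269 in EC1 TM and 0.407 in EC2 TM.

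The positions with the most reads are in Gbp2 and Gbp3. The 41 bases around 4 of them in the coding sequence are shown from the GENCODE vM21 transcripts, as the strand of the mRNA, with the altered A in capitals, because the same base was altered in nearly all reads of EC1 and in a part of those of EC2.
Gbp2 at position 142623867: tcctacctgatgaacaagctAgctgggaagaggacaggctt
Gbp3 at position 142565432: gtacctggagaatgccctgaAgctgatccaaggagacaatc
Gbp3 at position 142572606: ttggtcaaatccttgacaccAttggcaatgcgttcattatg
Gbp3 at position 142567699: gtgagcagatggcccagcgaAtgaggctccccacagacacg
At the Gbp2 position on chromosome 3 (mm10, 142623867, codon base 3), 84 of 84 reads in EC1 CON and 2319 of 2319 in EC1 TM had the altered base, against 33 of 82 (0.402, Wilson 95% interval 0.303 to 0.511) in EC2 CON and 1401 of 3495 (0.401, 0.385 to 0.417) in EC2 TM. The rate thus followed the mouse and not the treatment. In the 5′ UTR of Gbp2, position 142620761 gave 0.992 (CON) and 0.994 (TM) in EC1 against 0.423 (CON) and 0.389 (TM) in EC2, and position 142620771 gave 0.988, 0.993, 0.441 and 0.381 in the same order.

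In Gbp3 the rate at position 142565432 was 1.0 in both EC1 libraries (78 of 78 and 1090 of 1090 reads), 0.614 in EC2 CON (62 of 101) and 0.431 in EC2 TM (951 of 2208). Positions 142572606 and 142567699 gave rates of 1.0 and 0.980 in EC1 TM. In EC2 they gave 0.549 and 0.543 without TM and 0.492 and 0.475 with it. At all 4 coding positions EC1 was at or near 1 in both cultures. Fisher's exact test on the reads of a site compared the 2 libraries of a mouse, with adjustment over all sites tested in it. It takes reads as independent molecules and compares single libraries, so it covers counting error only and not the spread between cultures. In EC2 it called 2.46% of 10402 sites and 1 of 9 GBP sites, the Gbp3 position 142565432 (adjusted p = 0.023), and in EC1 0.959% of 9800 sites and the only GBP site tested was not called (adjusted p = 0.904). The files hold RNA reads only, in which an edited base and a base that differs in the mouse's DNA cannot be told apart.

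The study took a position as a potential editing site from a depth of 5, with 3 or more altered reads and rates between 0.05 and 0.95. Under these limits 51 positions of the GBP genes passed in at least 1 library. EC1 had 1 in CON and 10 in TM, and EC2 had 9 in CON and 44 in TM. Over all genes, the study reports fewer potential sites in EC1 TM than in EC1 CON and more in EC2 TM than in EC2 CON. The share of listed positions that pass was not computed over all genes here, so these numbers are no measure of a change in editing. Gbp2 and Gbp3 gave 19 and 13 of those in EC2 TM and 0 in either EC1 library, where the upper limit of 0.95 removes the positions described above. Of the 51, 8 lay in annotated repeats and 3 in SINEs, all 3 in Gbp2. In the study, a larger share of all potential sites lay in repeats. Gbp10 gave 4 and 6 passing positions in EC1 TM and EC2 TM and Gbp8 gave 3 and 2, while Gbp6 gave 0 in every library. The number of GBP positions that a library lists also moved with depth, from 55 and 43 in CON to 371 and 448 in TM for the chromosome 3 genes, in the order EC1, EC2, and its part in the counts of passing positions was not tested.

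Positions near the chromosome 3 cluster that belong to no GBP gene were read as well. In the megabase that starts at 142000000 on chromosome 3, 25 of 125 such positions with a depth of 10 or more were over 0.95 in EC1 TM and 1 was at 0.3 to 0.7. In EC2 TM 0 of 173 were over 0.95 and 35 were at 0.3 to 0.7. In the megabase from 105000000 on chromosome 5, 0 of 26 positions in EC1 TM and 0 of 51 in EC2 TM fell into either class.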

How the data were processed

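RNA of 4 libraries (CON and TM cultures of 2 mice) was measured. The authors used Trimmomatic 0.38 for trimming, STAR 2.6.1a for alignment to mm10 and HTSeq 0.11.2 for counting, per the labels and methods, and deposited raw counts per gene without normalization. They called variants per library, kept A-to-G or, on minus-strand genes, T-to-C changes, and deposited, for each base, its read counts and a rate that is a fraction of reads. Columns were given to libraries by name, and at 1998 of 1998 sites they equalled the study's own table. Rows that name no gene were left out (the HTSeq row for reads assigned to no feature made up 92.8% to 93.9% of each count table).

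Counts were fitted with edgeR 4.0.16 (filterByExpr, TMM, condition only) in R 4.3.3, and the script was tested on simulated data. Sites were handled in Python 3.11.15 with pandas 2.3.3, scipy 1.17.1 and statsmodels 0.14.6, and sequences with Biopython 1.88. Intervals are 95% and cover counting error only. CON and TM of a mouse are paired by animal, as the study states, and their deviations from the group means correlated with r = 0.163 over 7899 genes. P-values measure the spread between 2 cultures per group. As alternatives, DESeq2 1.42.0 was run, the replicate block (mouse) was added to either tool, and other scaling and filters, the omission of each library and other limits on sites were tried. The genes, lists and windows were chosen with earlier results of these data known. The text names all 9 genes, their relatives, Adar, up to 4 called genes per list with the largest fold changes, and the 5 nearest profiles. Genes such as Pycard and Igtp, the dynamins, atlastins and receptor subunits were added after their values were seen. Rate classes over 0.95 and of 0.3 to 0.7 were set after seeing the data. Protein sequences and chromosome 5 promoters were not analysed here. A gene of one list is not reported here.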

Additional observations from a re-analysis of the deposited data

Results flagged for a closer look

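The share of GBP counts on the chromosome 5 cluster moved in opposite directions in the 2 mice, by 1.98 percentage points from CON to TM in EC1 and by -11.5 percentage points in EC2. The difference between the mice was not tested, since each mouse gave 1 library per condition.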

How the results depend on the processing

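Of the 9 genes, 7 were called in the edgeR fit. The count was 6 of 8 tested with DESeq2 (Gbp4 had an adjusted p of 0.0584 and Gbp10 was not called), 5 with DESeq2 and the replicate block, which gave Gbp4, Gbp6, Gbp8 and Gbp10 no adjusted p, 7 with RLE size factors, 7 of 9 without a filter (Gbp8 and Gbp10 not called), and 2 of 2, Gbp7 and Gbp9, with at least 10 counts in every library, where the other genes were not fitted. edgeR with the replicate block (mouse) also called 7, while over all genes the calls rose from 612 to 1184. Leaving out 1 library at a time gave 6 to 7, and without TM replicate 2 (EC2 TM) Gbp6 had an adjusted p of 0.0546. The alternatives kept the direction of every fold change that could be tested. DESeq2 called 362 genes in all. The median depth ratio over the GBP genes, 20.9 in EC1 and 19.6 in EC2, became 21.9 in EC1 with the mean in place of the median and 27.0 in EC2 at positions listed in both libraries, over 5 genes. No depth ratio of a gene fell below 1. With at least 5 altered reads, passing positions in EC1 fell to 0 (CON) and 6 (TM), and with a rate of 0.10 to 0.90 to 0 in EC1 CON. The folds rest on 0 to 20 CON counts per gene and library, and the cause of the low counts was not tested.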
